A study of Mus musculus with 15 samples.

Results

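The 10 genes described here encode transcription factors of the heart: Gata4, Gata6, Nkx2-5, Hand2, Tbx20, Tbx5, Tbx3, Mef2a, Mef2c and Mef2d. They were taken by symbol from the 14337 genes listed, all 10 were found, and all 10 passed the filter on low values that left 12848 genes for testing. RNA-Seq was performed on cultured primary cardiomyocytes from whole hearts of wild-type C57/BL6 mouse pups aged 1 to 3 days, in 15 libraries. Cells were grown for 5 days, starved of serum for 24 h in 0.5% FBS, treated on day 6 and again on the next day, and harvested on day 8. The 3 control libraries (S1 to S3) received saline, the 4 AngII libraries (S5 to S8) received 1 µM angiotensin II, the peptide hormone used to induce hypertrophy, and the 4 ldCil libraries (S9 to S12) received low-dose cilengitide, a cyclic peptide that binds αv integrins, at 20 nM. The 4 AngII + ldCil libraries (S13 to S16) received both agents. The labels do not say whether libraries of a group came from separate cultures, so the spread between them may be technical. The comparisons asked whether AngII altered each factor and whether ldCil, with or without AngII, did so too.

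Gata4, Gata6, Nkx2-5, Hand2, Tbx5 and Tbx20 form the core cardiac network: they bind one another's enhancers and, with the MEF2 proteins, switch on contractile genes. Gata4 and the MEF2 factors are also endpoints of hypertrophic signalling, through phosphorylation and through export of class II histone deacetylases from the nucleus. Tbx3 is a repressor of the conduction system, where it holds down working-myocardium genes such as Gja1 and Nppa and competes with Tbx5 for shared sites. Tbx20 is needed in the adult myocyte for ion channel and contractile gene expression.

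Promoter sequence was looked up for the members because several of them varied together between libraries. The RefSeq table of GRCm38.p6 held a window of 250 bases before to 50 after the start for 6 of the 10 members. Gata4, Gata6, Tbx3 and Tbx5 had no entry. The bases before the start are shown for the 3 MEF2 genes, which were each highest in the same library, and for Tbx20, the most abundant member. They lie at chr7:67372859-67373108 on the minus strand for Mef2a, chr13:83503784-83504033 on the plus strand for the first Mef2c start, chr3:88142122-88142371 on the plus strand for Mef2d, and chr9:24774304-24774553 on the minus strand for Tbx20. None of the 4 stretches overlaps an annotated exon. Capitals mark matches, on either strand, to AGATAA (the GATA site), AGGTGT (T-box), AAGTG (NKX2-5), the MEF2 consensus or GGGCGG (the GC box).
Mef2a: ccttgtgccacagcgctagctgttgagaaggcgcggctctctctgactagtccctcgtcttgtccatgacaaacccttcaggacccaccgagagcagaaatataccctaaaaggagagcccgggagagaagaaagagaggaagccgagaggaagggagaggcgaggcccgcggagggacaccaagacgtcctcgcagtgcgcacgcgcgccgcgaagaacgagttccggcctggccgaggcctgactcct
Mef2c: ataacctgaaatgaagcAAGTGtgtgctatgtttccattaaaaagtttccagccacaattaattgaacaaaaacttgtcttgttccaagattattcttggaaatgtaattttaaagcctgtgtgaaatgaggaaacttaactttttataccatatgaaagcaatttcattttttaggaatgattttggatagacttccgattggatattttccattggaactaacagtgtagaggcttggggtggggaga
Mef2d: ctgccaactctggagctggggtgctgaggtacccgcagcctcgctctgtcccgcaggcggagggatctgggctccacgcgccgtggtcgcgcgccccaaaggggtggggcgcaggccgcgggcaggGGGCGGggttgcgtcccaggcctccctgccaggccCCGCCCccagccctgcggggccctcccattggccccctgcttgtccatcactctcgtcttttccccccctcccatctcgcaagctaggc
Tbx20: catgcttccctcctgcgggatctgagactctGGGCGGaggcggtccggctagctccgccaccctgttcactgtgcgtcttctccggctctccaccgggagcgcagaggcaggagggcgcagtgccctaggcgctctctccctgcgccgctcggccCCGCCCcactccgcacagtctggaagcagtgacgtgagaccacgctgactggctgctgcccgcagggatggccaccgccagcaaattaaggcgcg
The stretch at this Mef2c start was AT-rich, with 33.6% GC and 1 CpG, those at its other 2 starts, not shown, had 44.8% and 49.6% GC, and the other 3 were GC-rich, with 61.6% and 21 CpG for Mef2a, 73.2% and 19 for Mef2d, and 68.8% and 22 for Tbx20. The median over 32851 promoter windows was 52.4% GC. Mef2d and Tbx20 each held the GC box in both orientations, and the first Mef2c start held 1 NKX2-5 match. Of its other 2 starts, both held an NKX2-5 match, and the nearer to the first also a T-box match and a GC box. The Mef2a stretch held no capitals, but a MEF2 consensus, CTAAAAATAG, lay across its start from position -2 to 8. Of all windows of 300 bases, 35.66% held a GC box, 46.38% an NKX2-5 match, 13.74% a T-box match, 11.18% a GATA match and 3.19% the MEF2 consensus. These matches are letters in a window and not measured binding.

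The cells carried the markers of their label. Over the 15 libraries Actc1 averaged 11.69 and Myh6 11.22 on the log2 RPKM scale, where RPKM scales reads by gene length and library total. Markers of other cells were also present, with list means of 6.53 for 14 fibroblast, 5.32 for 10 smooth muscle, 2.87 for 13 macrophage and 2.08 for 11 endothelial genes. Col1a1 of fibroblasts was at 9.81 and Acta2, the highest of the smooth muscle genes, at 10.11. The other smooth muscle genes tested ran from Tagln at 8.58 down to Myh11 at 2.07. Macrophage genes ran from Lyz2 at 7.37 down to Ptprc at 0.65 among those tested, endothelial genes included Eng at 5.90 and Pecam1 at 1.62, and 0 of 8 erythroid genes were listed. Several members are expressed by fibroblasts or smooth muscle too, and in such bulk samples fewer cells of a type and less RNA per cell cannot be told apart. The libraries also differed across treatments: the mean of 22 interferon response genes was 4.79 to 5.38 in S1, S3, S5, S9 and S10, 3.12 in S2, and 0.89 to 2.33 in the other 9. No gene in any comparison passed an adjusted p of 0.05 in limma, in which 776 genes had an unadjusted p under 0.05 for AngII against control, 251 for ldCil, 722 for AngII + ldCil against control, 331 for AngII + ldCil against AngII and 496 for the interaction. Below, the adjusted p is printed, and an unadjusted p of 0.05 serves only to describe which members stood out from the spread.

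Levels of the members spanned a wide range. Tbx20 was highest, at a mean of 7.84 log2 RPKM over the 15 libraries and above 97.9% of listed genes. Mef2a followed at 7.21, Gata4 at 7.11, Nkx2-5 at 6.43, Mef2d at 6.18, Gata6 at 5.59, Hand2 at 5.54, Mef2c at 5.53, Tbx5 at 4.24 and Tbx3 at 2.21, which was above only 29.9% of listed genes. Neighbours in this order differed in 1 direction in all 15 libraries for 5 of the 9 pairs. The order did not hold in every library for Mef2a over Gata4 (9 of 15), Nkx2-5 over Mef2d (14), Gata6 over Hand2 (8) or Hand2 over Mef2c (5).

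**Figure D1:**
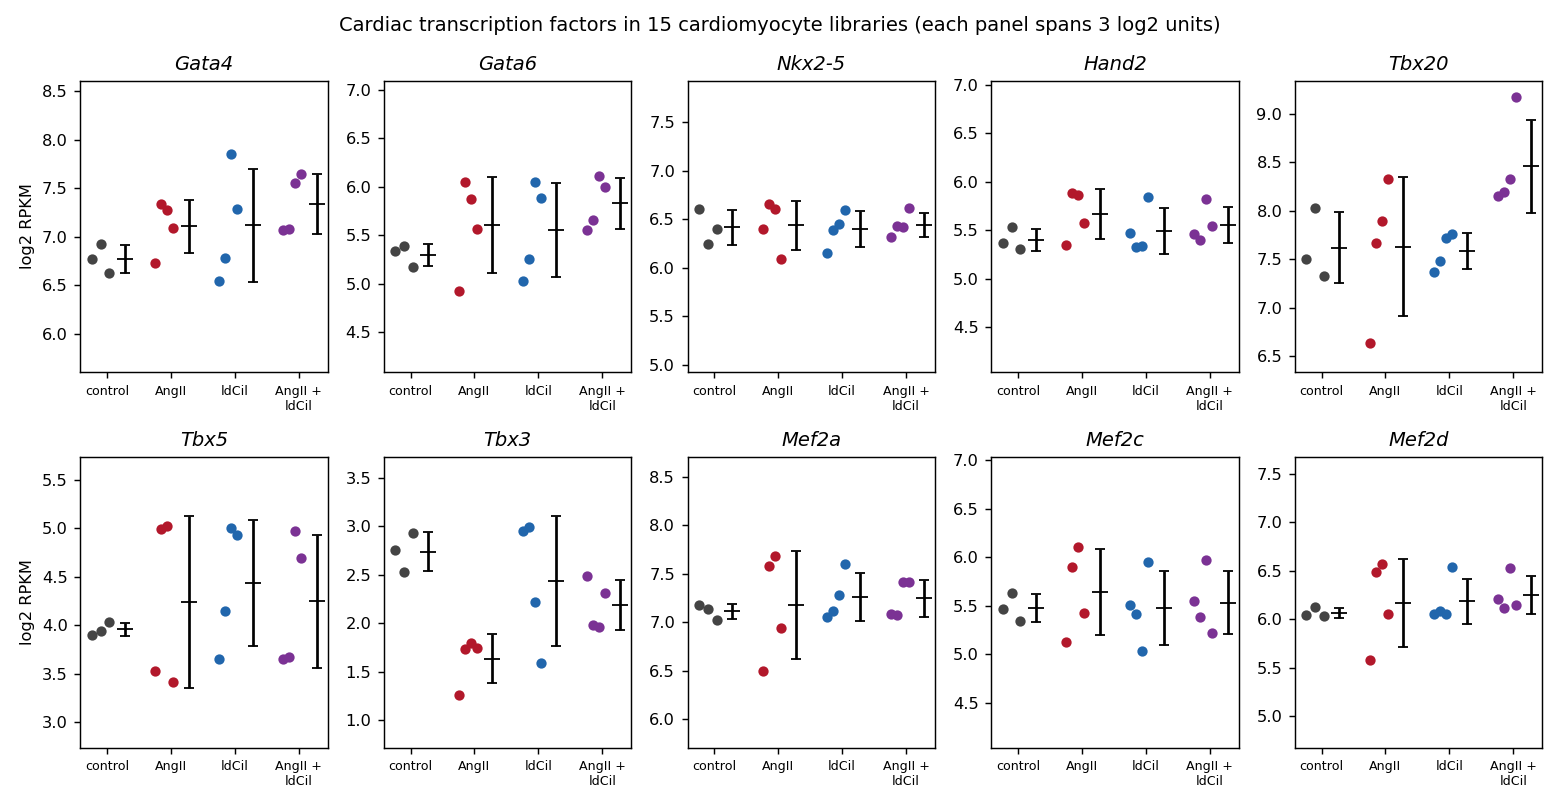
Log2 RPKM of the 10 members by treatment group. Each point is 1 library, the black bar beside it is the group mean with SD (n = 3 for control, 4 for the others), and every panel spans 3 log2 units. The 4 AngII libraries of Tbx3 (1.26 to 1.80) lie below the 3 control libraries (2.52 to 2.93), and the 4 AngII + ldCil libraries of Tbx20 (8.15 to 9.17) lie above the controls.

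Tbx3, on chromosome 5 (chr5:119670669-119684724, plus strand, GRCm38), was lower in every AngII library than in every control library. In controls its log2 RPKM was 2.76 in S1, 2.52 in S2 and 2.93 in S3. In AngII it was 1.26 in S5, 1.73 in S6, 1.80 in S7 and 1.74 in S8. The groups did not overlap, and S5 was the lowest library of all. The geometric mean was 6.66 RPKM in controls and 3.10 RPKM with AngII, a log2 fold change of -1.10 (SE 0.30). The study presents Tbx3 among genes it selected on these same libraries for a difference between AngII and control, so this value is a description and no test is given for it. Left out 1 at a time, the libraries gave log2 fold changes of -1.21 to -0.98. As the groups did not overlap, no such refit could have changed the direction.

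With ldCil alone, Tbx3 was at 2.95 in S9, 3.00 in S10, 2.21 in S11 and 1.59 in S12. S9 and S10 lay above every control and S12 among the AngII libraries, so this group overlapped both. Its mean of 2.44 ± 0.67 (SD, n = 4) had the widest spread of the 4 groups. The log2 fold change against control was -0.30 (SE 0.30). This contrast reuses the control libraries on which the gene was selected, so no p is given for it.

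With AngII + ldCil, Tbx3 was at 2.48 in S13, 1.98 in S14, 1.96 in S15 and 2.31 in S16. All 4 values lay between the lowest control and the highest AngII library, overlapping neither. The log2 fold change was 0.55 (SE 0.28) against AngII and -0.55 (SE 0.30) against control. The interaction, which asks whether the AngII difference changed with ldCil, was 0.85 (SE 0.41). These contrasts reuse the AngII or control libraries on which the gene was selected, and no p is given for them. The study also shows genes that differed with AngII and no longer differed from control with AngII + ldCil. The AngII + ldCil libraries may thus have entered the selection too, and the middle position of this group is a description only.

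Tbx3 also varied with the interferon genes. In the 5 libraries with interferon means of 4.79 or more it was at 2.76, 2.93, 2.95 and 3.00 in S1, S3, S9 and S10 and at 1.26 in S5, the AngII library among them. In the 6 libraries with means of 1.28 or less it was at 1.73 and 1.80 in S6 and S7 (AngII), 2.21 and 1.59 in S11 and S12 (ldCil), and 1.96 and 2.31 in S15 and S16 (AngII + ldCil). S5, the only AngII library in the first set, was thus the lowest there. S6 and S7 lay within the range of the others in the second set, which held no control. With the interferon mean as a covariate, an alternative chosen after seeing the data, the AngII log2 fold change was -0.84, and with the cardiomyocyte marker mean it was -0.80.

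Genes whose levels followed Tbx3 most closely were Hspa9 (Pearson r = 0.907), Eif3c (0.902), Ces2f (0.886), Cltc (0.885) and Adam19 (0.884), and those most opposed were Il17d (-0.930), Nfatc2 (-0.916), Pcmt1 (-0.908), Paip1 (-0.902) and Uqcr11 (-0.901). These coefficients are over the 15 libraries, which share their treatments and library differences, and were the extremes of all genes tested. Il17d was at a low level, averaging -0.92 log2 RPKM in controls, 1.32 with AngII, -0.19 with ldCil and 0.57 with AngII + ldCil. It passed the filter on low values through the groups where it was higher. Nfatc2, a calcineurin-dependent transcription factor, averaged 2.30 log2 RPKM in controls, 2.83 with AngII, 2.39 with ldCil and 2.65 with AngII + ldCil.

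Tbx5 lies 147943 bases from Tbx3 on the same strand, at chr5:119832668-119885219, and activates atrial and conduction genes. Its levels fell in 2 sets that did not follow which treatment was given, though all 3 controls were in the lower set. In S6 and S7 (AngII), S11 and S12 (ldCil), and S15 and S16 (AngII + ldCil) it was at 4.99, 5.03, 5.01, 4.93, 4.97 and 4.70 log2 RPKM. In the other 9 libraries it was at 4.15 or less, the controls being at 3.90, 3.94 and 4.04. No library lay between 4.15 and 4.70, and each treated group was split 2 and 2. The same 6 libraries had interferon means of 0.89 to 1.28, below the other 9. The treatment differences were small against this split, with a log2 fold change of 0.28 for AngII against control (95% interval -0.70 to 1.27, limma adjusted p = 0.916) and of 0.48 for ldCil (-0.50 to 1.46, adjusted p = 0.966). The share of its variance between groups was 7.18%.

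**Figure D2:**
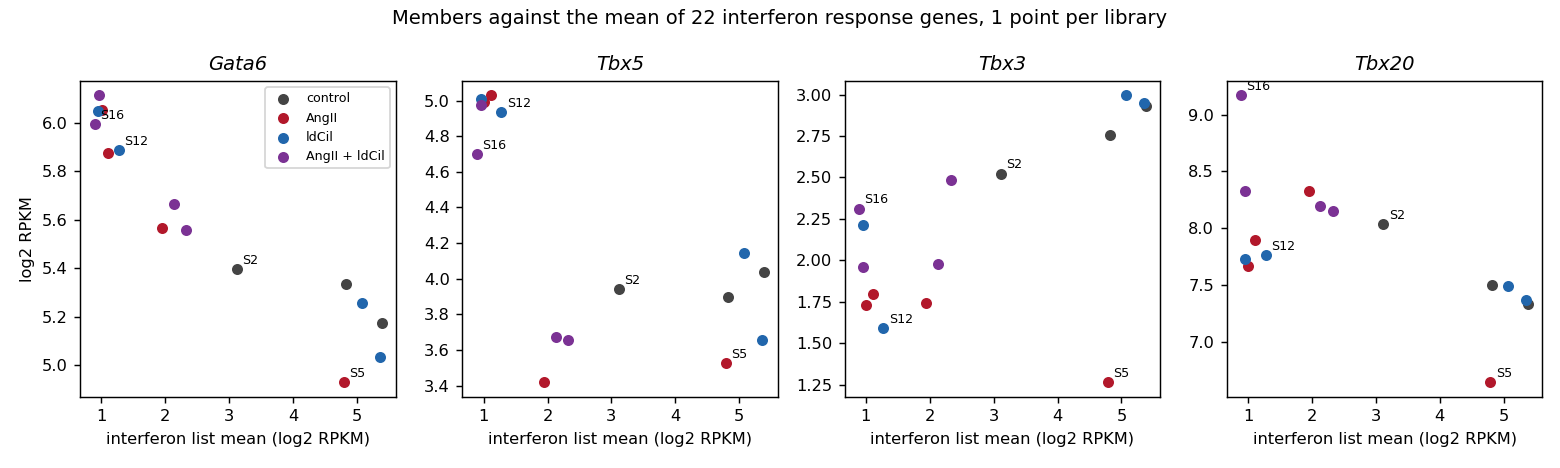
Log2 RPKM of Gata6, Tbx5, Tbx3 and Tbx20 (vertical axes, each with its own range) against the mean log2 RPKM of 22 interferon response genes (horizontal axis), 1 point per library coloured by treatment, with S2, S5, S12 and S16 named. The 6 libraries at interferon means of 1.28 or less hold Tbx5 at 4.70 or more and Gata6 at 5.88 or more.

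Gata6, the zinc-finger factor paired with Gata4, separated the same 6 libraries. It was at 5.88 or more in S6, S7, S11, S12, S15 and S16 and at 5.66 or less in the other 9. In controls it was at 5.34, 5.40 and 5.17. In AngII it was at 4.93 in S5 but 6.05, 5.88 and 5.57 in S6, S7 and S8. The log2 fold change was 0.30 (SE 0.27, limma adjusted p = 0.825). Without S5 it was 0.53, past an unadjusted p of 0.05, and with the interferon mean as a covariate it turned to -0.19.

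Gata4, which directs contractile and natriuretic peptide genes, was at 6.77, 6.92 and 6.63 log2 RPKM in controls. It was at 6.73, 7.34, 7.27 and 7.09 in S5 to S8 and at 6.55, 6.78, 7.86 and 7.29 in S9 to S12. In AngII + ldCil it was at 7.08, 7.08, 7.56 and 7.65 in S13 to S16, above every control. The AngII and ldCil groups overlapped the controls. The log2 fold change against control was 0.33 for AngII (SE 0.26, limma adjusted p = 0.812), 0.34 for ldCil (SE 0.26, adjusted p = 0.966) and 0.57 for AngII + ldCil (SE 0.26, adjusted p = 0.849), the last past an unadjusted p of 0.05. It missed an unadjusted p of 0.05 when any of S1, S2, S3, S6, S7, S8, S12, S15 or S16 was left out. Over all libraries left out 1 at a time it ran from 0.46 to 0.65. With the interferon mean as a covariate it was -0.02. That mean was 3.12 to 5.38 in controls and 0.89 to 2.33 in AngII + ldCil, without overlap. The covariate fit thus extrapolates, and treatment and interferon state cannot be told apart in this comparison.

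Hand2, a basic helix-loop-helix factor of the ventricles, and Mef2c had the same 4 highest libraries. Hand2 was at 5.82 to 5.89 in S6, S7, S12 and S15 and at 5.57 or less in the other 11. Mef2c was at 5.90 to 6.10 in those 4 and at 5.63 or less elsewhere. The same 4 libraries had the highest means of the 20 cardiomyocyte markers, 9.56 to 9.70 against 9.33 or less. Mef2a and Mef2d were both lowest in S5, at 6.50 and 5.58, and both highest in S7, at 7.69 and 6.57. Mef2c was highest in S7 too, at 6.10, and lowest in S11, at 5.03. The 4 high libraries came from 3 treatment groups.

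None of these 4 genes had an unadjusted p under 0.05 in limma in any comparison. For AngII against control the log2 fold changes were 0.27 for Hand2 (95% interval -0.08 to 0.61), 0.07 for Mef2a (-0.44 to 0.57), 0.16 for Mef2c (-0.37 to 0.69) and 0.10 for Mef2d (-0.33 to 0.54), with limma adjusted p of 0.786, 0.965, 0.907 and 0.929. Without S5, Hand2 was at 0.37, past an unadjusted p of 0.05. With the cardiomyocyte marker mean as a covariate all 4 turned below 0. The markers include contractile targets of the members, so this fit can also remove a change of the members themselves.

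Nkx2-5, the homeodomain factor that marks cardiac progenitors and myocytes, varied least. Its 15 values ran from 6.10 in S8 to 6.66 in S6, and its SD was at the 15.9th percentile of the genes tested. In controls it was at 6.61, 6.24 and 6.40. The log2 fold change for AngII was 0.02 (95% interval -0.30 to 0.34, limma adjusted p = 0.981), and 1.29% of its variance lay between groups.

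**Figure D3:**
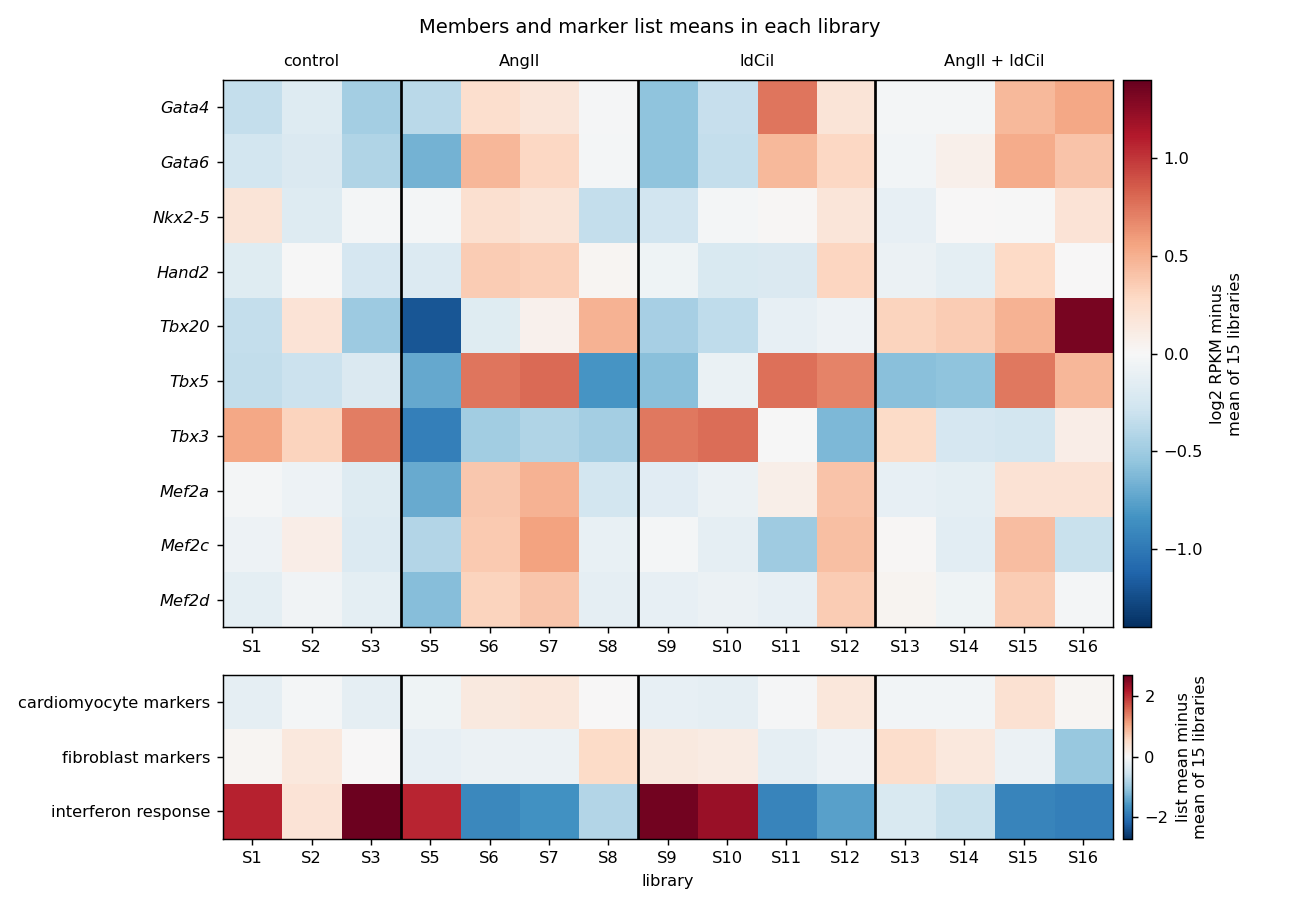
Each member's log2 RPKM minus its mean over 15 libraries (upper panel, 1 row per gene) and the means of 20 cardiomyocyte, 14 fibroblast and 22 interferon response genes, centred in the same way (lower panel, own scale), for each library. Red is above and blue below the mean. S5 is lowest for Tbx3, Tbx20, Gata6, Mef2a and Mef2d, and S6, S7, S12 and S15 are highest for Hand2 and Mef2c.

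Tbx20, on chromosome 9 (chr9:24718138-24774303, minus strand), had its highest group in AngII + ldCil. In controls it was at 7.50, 8.03 and 7.33 log2 RPKM. In AngII it was at 6.64 in S5, 7.67 in S6, 7.90 in S7 and 8.33 in S8. In AngII + ldCil it was at 8.15, 8.20, 8.33 and 9.17 in S13 to S16. All 4 of the latter lay above every control, and S8 was the AngII library that overlapped them. With ldCil alone it was at 7.37, 7.49, 7.73 and 7.76, within the range of the controls. The geometric means were 197 RPKM in controls, 198 in AngII, 192 in ldCil and 352 in AngII + ldCil.

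The log2 fold change of Tbx20 was 0.84 for AngII + ldCil against control (SE 0.33, limma adjusted p = 0.849) and 0.83 against AngII (SE 0.31, adjusted p = 1), both past an unadjusted p of 0.05. For AngII against control it was 0.01 (95% interval -0.70 to 0.72, limma adjusted p = 0.997), and the interaction was 0.86 (SE 0.45, limma adjusted p = 0.958). The exact permutation test gave p = 0.0571 against control and p = 0.114 against AngII. The first is the smallest that this form of 2-sided test allows for 3 against 4 libraries. S5 and S16 held the lowest and the highest value, and the difference from AngII was 0.50 without S5, 0.59 without S16 and 0.26 without both, each short of an unadjusted p of 0.05. Against control it was 0.60 without S16, 0.78 without S1 and 0.69 without S3, again short of that threshold. With the interferon mean as a covariate it was 0.28 against control, short of the threshold, and 0.70 against AngII, past it. Interferon means of AngII + ldCil and control did not overlap, so treatment and interferon state cannot be told apart in the former. S16 also had the lowest means of 14 fibroblast markers (5.51, against 6.28 to 7.06 in the others) and of 13 macrophage markers (1.49), and S5 the highest macrophage mean (3.91). Their part in the Tbx20 values was not tested.

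As a group, 9 of the 10 members had a higher mean in AngII than in control and 1, Tbx3, a lower one, where 53.7% of all genes tested were higher. Their median log2 fold change was 0.13 against 0.02 for all genes. Of the 9 members other than Tbx3, 0 had an unadjusted p under 0.05 in limma, against 6.04% of all genes, and 0 were free of overlap between groups, against 8.74%. With the cardiomyocyte marker mean as a covariate all 9 higher members turned below 0, and with the interferon mean 8 of them did, Hand2 excepted at 0.08. Of the 20 cardiomyocyte markers, which include contractile targets of the members, 16 were higher with AngII. All 22 interferon genes were lower. Such fits can also remove a change of the members themselves, so they cannot separate it from the measure adjusted for.

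For ldCil against control, 6 members were higher and 4 lower, where 50.3% of all genes were higher. Of the 9 members other than Tbx3, 0 had an unadjusted p under 0.05 in limma (1.95% of all genes), and 0 were free of overlap (6.87%). The 7 members other than Tbx3, Tbx5 and Gata4 had log2 fold changes of -0.04 to 0.26. For AngII + ldCil against control, 9 were higher and Tbx3 lower, where 58.4% of all genes were higher. Of the 9, 2 (Tbx20 and Gata4) were at an unadjusted p under 0.05 (5.62% of all genes, in either direction), and 3 did not overlap (Gata4, Gata6 and Tbx20, against 13.5% of all genes). Gata6 differed there by 0.53 (SE 0.27, limma adjusted p = 0.849), which turned to -0.10 with the interferon mean as a covariate. The interferon means of these groups did not overlap, so that fit cannot separate treatment from interferon state. The 6 remaining members differed by 0.03 to 0.29. Neither Tbx20 nor Gata4 had an unadjusted p under 0.05 there without S1, without S3 or without S16.

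For AngII + ldCil against AngII, 8 members were higher and 2, Mef2c and Hand2, lower, where 52.4% of all genes were higher. Of the 9 members other than Tbx3, 1, Tbx20, had an unadjusted p under 0.05 (2.58% of all genes), and 0 were free of overlap (1.55% of all genes). Gata4 differed by 0.23 (SE 0.24, limma adjusted p = 1) and Gata6 by 0.23 (SE 0.25, adjusted p = 1), and the 6 remaining members by -0.11 to 0.08. In the interaction 0 of these 9 had an unadjusted p under 0.05 in limma (3.86% of all genes). The members other than Tbx3 and Tbx20 ran from -0.47 for Tbx5 to 0.02 for Nkx2-5. The comparisons with control share the 3 control libraries, and those with AngII share its 4.

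**Figure D4:**
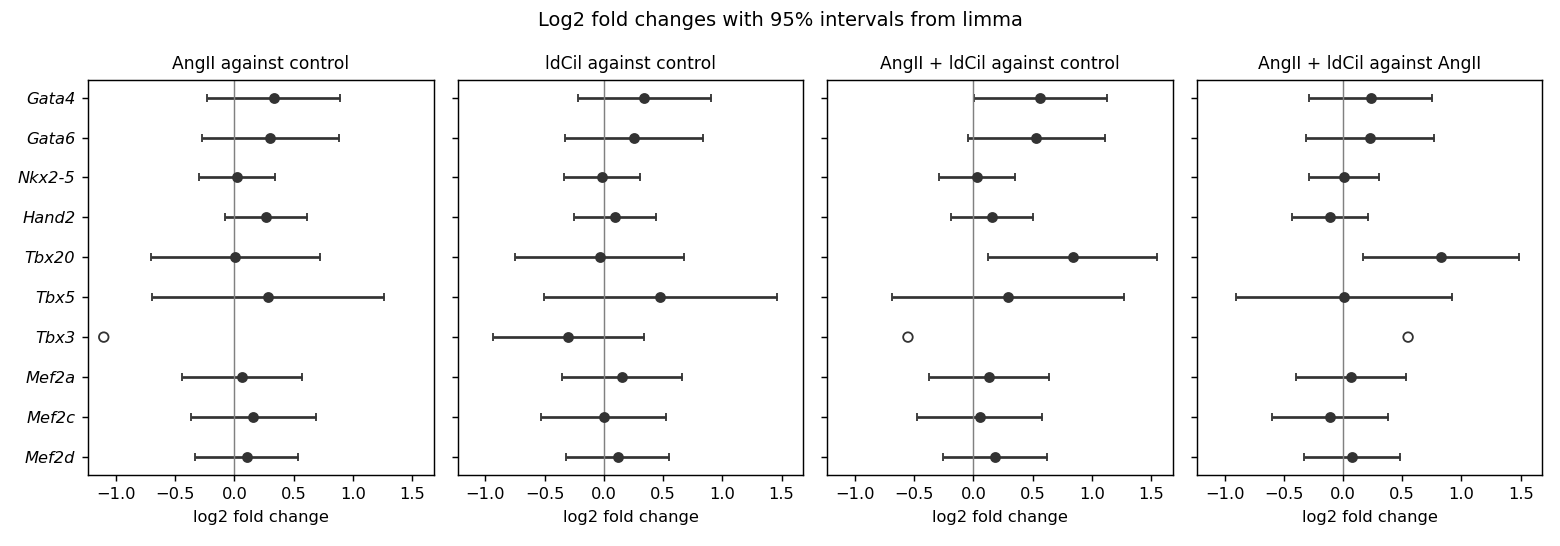
Log2 fold change of each member in 4 comparisons, with 95% intervals from limma (points are estimates, the grey line is 0). Tbx3 is drawn as an open point with no interval in every panel but ldCil against control. The study selected it on these libraries. Its interval in ldCil against control is only a description, as that comparison also reuses the control libraries of the selection. Intervals that leave out 0 belong to Tbx20 and Gata4 in AngII + ldCil against control, and Tbx20 in AngII + ldCil against AngII.

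Few other cardiac transcription factors stood out from the spread. Of 53 on this list, 37 were tested, and for AngII against control 1 was higher and 1 lower at an unadjusted p under 0.05, with a median log2 fold change of 0.06. Over all genes tested, 3.41% were higher and 2.63% lower at that threshold, with a median of 0.02, and no gene on this or the following lists passed an adjusted p of 0.05 in limma. Nfatc2 differed by 0.53 (SE 0.20) and Nfatc4, another calcineurin-dependent factor, by -1.04 (SE 0.41). For AngII + ldCil against AngII, where 1.61% of all genes were higher and 0.965% lower, 2 were higher: Myocd, the coactivator of serum response factor, by 0.49 (SE 0.20) and Tead1, the partner of YAP, by 0.55 (SE 0.23). Meis2, short of the threshold, differed by 0.24 (SE 0.13).

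Of 28 cofactors and upstream regulators of the members, 27 were tested, and 1 was higher and 1 lower with AngII at an unadjusted p under 0.05, with a median log2 fold change of 0.13. Ppp3ca, the catalytic subunit of calcineurin, differed by 0.39 (SE 0.10), Akap6, a scaffold that holds calcineurin and MEF2D at the nuclear envelope, by -0.48 (SE 0.20), and Prkd1, a kinase of class II histone deacetylases, by 0.41 (SE 0.20, short of the threshold). Between AngII + ldCil and AngII, Akap6 differed by 0.60 (SE 0.18), past the threshold. Prkd1 at -0.39 (SE 0.19) and Hdac5, a deacetylase that represses MEF2, at -0.30 (SE 0.17) were short of it. Both comparisons use the same AngII libraries, so opposite signs are no independent result.

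All 28 contractile and secreted targets of the members were tested, and 2 were higher with AngII at an unadjusted p under 0.05, with a median of 0.16. Myl4, the atrial light chain, differed by 1.51 (SE 0.62), Tnni3, cardiac troponin I, by 0.58 (SE 0.24) and Mb, myoglobin, by 0.99 (SE 0.48, short of the threshold). For AngII + ldCil against AngII no target passed the threshold in limma. Mb was at -0.75 (SE 0.44), Myh6, the α myosin heavy chain, at -0.24 (SE 0.14) and Myl3, the ventricular light chain, at -0.34 (SE 0.21).

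Of 32 genes of the conduction system or known to be repressed by Tbx3, 27 were tested, with a median log2 fold change of 0.13 for AngII against control. 1 gene passed an unadjusted p of 0.05, where 3.41% of all genes tested were higher. It was Cacna1d, the calcium channel of pacemaker cells, at 1.51 (SE 0.51), from a mean of -0.92 to 0.58 log2 RPKM, a low level. Cacna1d passed the filter on low values through the treated groups, where it was higher, which favours a rise over control. Gja1, the ventricular gap junction gene that Tbx3 represses, was at -0.36 (SE 0.22) and Smoc2, a secreted matrix protein, at 0.69 (SE 0.41), both short of it. Against AngII, in AngII + ldCil, Gja1 differed by 0.46 (SE 0.21) and Smoc2 by -0.87 (SE 0.38), both past the threshold. The sets of AngII libraries are again shared. The list mean was 4.57 or more in S6, S7, S11, S12 and S15 and 4.22 or less in the other 10, and the first 5 are among the 6 libraries that were high in Tbx5.

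The marker lists varied beside these results. For AngII against control, 2 of 20 cardiomyocyte, 1 of 10 smooth muscle and 0 of 14 fibroblast, 11 endothelial, 13 macrophage, 9 epicardial and 3 neuronal and Schwann genes tested in limma were higher at an unadjusted p under 0.05, and none of these lists had a gene lower at that threshold. The 2 cardiomyocyte genes were Myl4 and Tnni3, the same genes that were counted among the contractile targets above. The smooth muscle gene was Tagln, at 0.59 (SE 0.23). Of 22 interferon response genes 7 were lower, among them the regulators Irf7 at -3.75 (SE 1.64) and Irf9 at -0.999 (SE 0.42) and the effector Ifit2 at -0.86 (SE 0.37). For AngII + ldCil against AngII, the endothelial receptor gene Kdr, at a low level, was the 1 gene of these lists past the threshold, at 0.98 (SE 0.42). For AngII + ldCil against control, where Tbx20 and Gata4 stood out, 19 of the 22 interferon genes and 2 of the 13 macrophage genes were lower at that threshold. In the same comparison 1 fibroblast gene was lower, 1 cardiomyocyte, 1 smooth muscle and 1 endothelial gene (Kdr, at 1.53) were higher, and 1 epicardial gene differed each way. Of all genes tested, 5.62% were past the threshold there, in either direction. The cardiomyocyte list mean was 9.04 to 9.23 in controls, 9.17 to 9.59 in AngII, 9.04 to 9.59 in ldCil and 9.21 to 9.70 in AngII + ldCil, and the fibroblast mean was 6.55 to 6.82, 6.30 to 7.06, 6.28 to 6.80 and 5.51 to 6.996. The interferon mean was 3.12 to 5.38, 1.01 to 4.79, 0.95 to 5.35 and 0.89 to 2.33. Their part in the members' values was not tested beyond the covariate fits given above.

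Reads of antisense neighbours could enter some values, as the strand setting of the counting is not given in the sources used here. Exons of Mef2a overlap those of Lysmd4 by 302 bases, Hand2 those of Hand2os1 by 461, Mef2d those of 1700113A16Rik by 531, Tbx3 those of Tbx3os1 by 115 and Gata6 those of 1010001N08Rik by 93.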

How the data were processed

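Libraries were made from cultured cardiomyocytes by poly(A) capture and sequenced on an Illumina NextSeq. By the submitters' processing notes, reads were aligned to GRCm38 (mm10) with HISAT2 and counted with HTSeq, in versions that these notes do not state. The values the authors deposited are log2 RPKM after conditional quantile normalisation, and the upper quartile is the same in all 15 libraries. No table of counts was analysed, which leaves depth and counting error unknown. Gene positions came from a GENCODE annotation of GRCm38, and 14329 of the 14337 identifiers matched it.

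Analysis used R 4.3.3 and limma 3.58.1. The filter kept 12848 genes whose mean log2 RPKM reached 0. Limma fitted 4 group means to all 15 libraries with a trend on mean expression. All tests were 2-sided, and limma's p-values were corrected by Benjamini-Hochberg over the genes kept. The script was tested on simulated data. Means per list are over its genes tested.

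The members and lists were chosen with earlier results of these data known. The genes named are the 10 members, the 3 genes of each other list with the smallest p for AngII against control and for AngII + ldCil against AngII (of marker lists, those past an unadjusted p of 0.05 and the defining markers, the others being omitted for length), and the 5 genes with the highest and lowest r to Tbx3. Some genes that this rule names are not reported here. Correlations between members or with marker means were computed but are not given, because the libraries fall in separate sets. The r values to Tbx3 have the same limit and serve only to name genes. The alternatives tried were no filter, a filter at 2, a pseudocount of 0.1 or 1, median centring, quantile normalisation, only the groups compared, other moderation, library weights, a cardiomyocyte covariate and leaving out each library. An interferon covariate and leaving out S5 and S16 together were chosen after seeing the data.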

Additional observations from a re-analysis of the deposited data

Results flagged for a closer look

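Among 30 groups of 4 libraries (10 members in 3 treatments), 2 held a library far from the other 3 by Dixon's criterion at 95%, where chance gives about 1 in 20. Tbx3 in S5 (AngII) was at 1.26 log2 RPKM, with the other 3 AngII libraries at 1.73 to 1.80. Mef2d in S12 (ldCil) was at 6.53, with the other 3 ldCil libraries at 6.06 to 6.09.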

How the results depend on the processing

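The number of genes at an adjusted p under 0.05 was 0 in each comparison under each alternative except library weights, which ran from 0.113 for S5 to 7.01 for S1 and gave 6245 genes for AngII against control, 3 for ldCil, 2311 for AngII + ldCil against control, 4048 for AngII + ldCil against AngII and 2387 for the interaction. The cause was not tested. Tbx3 in AngII against control kept its direction under each alternative run. For refits with 1 library left out this was fixed in advance, because the groups did not overlap. In that comparison, the cardiomyocyte covariate gave log2 fold changes of -0.011 for Gata4, -0.13 for Gata6, -0.097 for Nkx2-5, -0.50 for Tbx5, -0.25 for Tbx20, -0.31 for Mef2a, -0.22 for Mef2c, -0.24 for Mef2d and -0.012 for Hand2. The interferon covariate gave -0.12 for Gata4, -0.19 for Gata6, -0.079 for Nkx2-5, -0.39 for Tbx5, -0.43 for Tbx20, -0.27 for Mef2a, -0.021 for Mef2c and -0.15 for Mef2d. For AngII + ldCil against control, groups whose interferon means did not overlap, it gave -0.020 for Gata4 and -0.10 for Gata6. With 1 library left out, AngII against control ran from -0.064 to 0.14 for Nkx2-5, -0.22 to 0.34 for Tbx20, -0.10 to 0.29 for Mef2a and -0.028 to 0.30 for Mef2d. Library weights gave 0.10 for Tbx3 with ldCil and, against AngII, -0.15 for Gata4 and -0.24 for Gata6. Without S5 and S16 the last was -0.053. The members given as ranges changed sign in 93 of 748 refits and crossed an unadjusted p of 0.05 in 11. No paired analysis was possible because the labels number no replicates, and the numbers used here follow accession order only.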
